A study of Mus musculus with 8 samples.

Results

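A set of 10 imprinted genes was followed by RNA level and by m6A call through 4 cultured mouse cell types. The genes were listed by symbol (Peg3, Peg10, Mest, Igf2r, H19, Meg3, Snrpn, Grb10, Plagl1 and Dlk1), and every transcript row whose RefSeq identifier maps to a symbol was taken. Of the 10 genes, 9 had at least 1 row, 13 of the 19776 transcript rows and 9 of the 15359 genes. No row could be matched to H19, so no value is given for it. The rows comprised 11 coding rows of 8 genes and 2 non-coding rows of Meg3.

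The cells were testicular Sertoli cells (SC, passage 2), neural stem cells isolated from the brains of E12.5 fetuses (NSC, passage 16), induced pluripotent stem cells (iPSC, passage 22) and embryonic stem cells (ESC, passage 14). All 4 came from C57BL/6 mice, and no group carried a named mutation or drug. ESC and iPSC were grown with leukemia inhibitory factor, NSC with N2, B27, EGF and bFGF, and SC in serum. The sources used here give neither the number of animals or lines behind a culture nor the way the iPSC were reprogrammed. Each cell type had 1 RNA-seq library and 1 m6A-seq library, so no difference below has a replicate check, no spread is known and no p-value is given.

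An imprinted gene is expressed mainly from 1 parental copy. In most cases this follows a methylation mark laid down in egg or sperm, at the gene or in a region controlling its domain. Many imprinted genes act on growth: paternally expressed genes tend to promote it and maternally expressed genes to restrain it. In pluripotent mouse cells these marks can drift in culture and during reprogramming, and loss of Meg3 expression is a known feature of some mouse iPSC lines. m6A, or N6-methyladenosine, is the commonest internal modification of mRNA, laid down mainly in long internal exons and around stop codons within a short consensus sequence. The files hold neither allele-specific values nor DNA methylation, so the parental copy in use was not analysed here.

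The values are FPKM (fragments scaled for transcript length and for the size of the library) and a gene's level is the sum over its rows. Differences are given on the log2(FPKM + 1) scale, which makes the change of low genes look smaller, and "2-fold" is a difference of 1 on that scale. Genes were compared where at least 1 library in the comparison reached 1 FPKM. The m6A values are yes or no calls for 5 regions of each coding row, headed TcSS, 5' UTR, CDS, then TsTS, and last 3' UTR. The header does not spell out TcSS or TsTS, and TsTS stands between CDS and 3' UTR.

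The identity of the libraries was checked with marker lists. The summed FPKM of 5 pluripotency genes was 0.530 in SC, 14.3 in NSC, 991 in iPSC and 1482 in ESC, and that of 8 Sertoli genes was 12315, 4.67, 17.1 and 17.02 in the same order. Sox2 (14.26 FPKM) made up nearly all of the NSC sum of pluripotency genes. Clu made up most of the Sertoli sums in SC (11071), iPSC (11.3) and ESC (9.67), and Amh was the lowest Sertoli gene in SC at 3.32. In SC all 8 Sertoli genes reached 1 FPKM, and so did 9 of 12 fibroblast and peritubular genes (4614 FPKM summed, against 62.4 in NSC) and 2 of 3 Leydig genes. In NSC 4 of 7 neural stem genes reached 1 FPKM, among them Pax6 at 15.4, while Nes stood at 9.10, Fabp7 at 0.380 and Sox1 was listed at 0. The Nes level was 85.9 FPKM in SC. The part of other cell types in the results below was not tested.

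Rows with RNA in NSC alone were called no more often in NSC than in iPSC or ESC. Of 230 coding rows at 10 FPKM or more in SC and under 1 FPKM elsewhere, 82.6% were called in SC and between 16.5% and 19.1% in the other cell types. Of 79 such rows of NSC, 12.7% were called in NSC, against 7.59% in SC, 15.2% in iPSC and 12.7% in ESC. Among coding rows at 100 FPKM or more, 63.4% were called in SC, 30.7% in NSC, 44.6% in iPSC and 66.2% in ESC. Setting an NSC call beside an NSC level, as done below, assumes that both NSC libraries hold like cells, which was not tested. The spans of levels, the likeness ranks and the comparison across the 2 sides are also given without the NSC libraries. Those between SC and NSC cannot be.

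**Figure D1:**
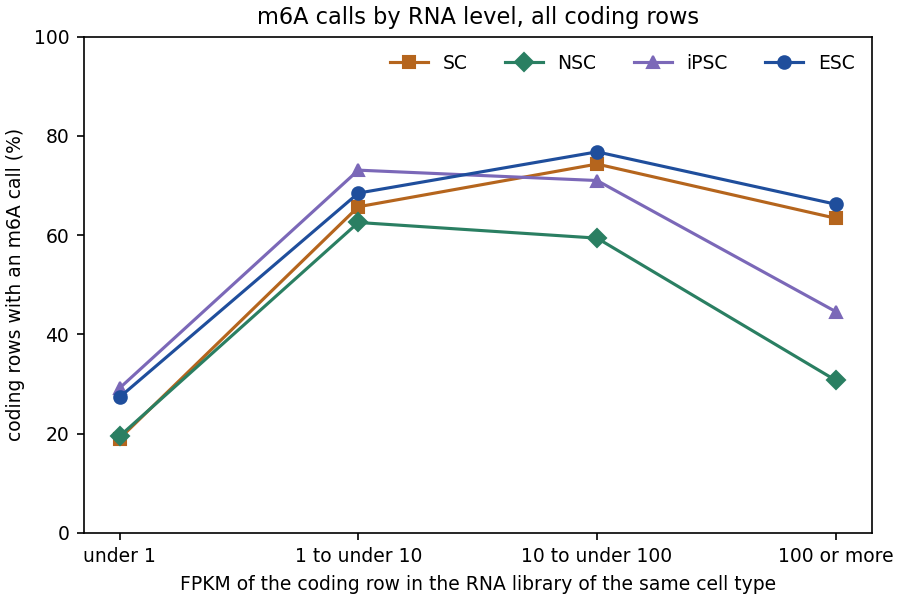
Share of all coding rows with an m6A call in any region (y axis, percent) by the FPKM of the same row in the RNA library of the same cell type (x axis), 1 line per cell type. In NSC the share is 59.4% at 10 to under 100 FPKM and 30.7% at 100 FPKM or more, the lowest of the 4 cell types in both ranges.

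The sequences of called members are shown first, because the calls carry no position within a region. Reference transcripts of build GRCm38 (GENCODE M21) were found for 10 of the 11 coding rows, all but that of Peg10. They were searched on the transcript strand for GGACT and GAACT, common forms of the m6A consensus, whose matches cannot overlap each other. Over 15230 reference coding sequences of rows at 1 FPKM or more in some library the median density was 2.24 matches per 1000 bases, with quartiles of 1.41 and 3.16. A match is a description of the letters and not a methylated site. The 120-base coding stretch with the most matches is given for Igf2r, Peg3 and Plagl1, which were called in CDS in SC, iPSC and ESC, and for Mest, which was called in CDS in NSC only. Capitals mark the matches. The Igf2r stretch lies at chr17:12702243-12703395 (minus strand), the Peg3 stretch at chr7:6712727-6716124 (minus), the Plagl1 stretch at chr10:13127477-13127596 (plus, within 1 exon) and the Mest stretch at chr6:30742781-30743061 (plus); those of Igf2r, Peg3 and Mest are spliced across an intron.
Igf2r coding: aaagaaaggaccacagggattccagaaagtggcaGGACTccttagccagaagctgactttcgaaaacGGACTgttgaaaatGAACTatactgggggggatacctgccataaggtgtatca
Peg3 coding: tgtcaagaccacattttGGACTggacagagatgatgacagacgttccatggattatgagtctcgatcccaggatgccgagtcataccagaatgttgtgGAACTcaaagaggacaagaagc
Plagl1 coding: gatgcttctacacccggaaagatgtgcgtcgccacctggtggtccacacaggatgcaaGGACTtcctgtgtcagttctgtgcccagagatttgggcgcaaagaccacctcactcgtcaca
Mest coding: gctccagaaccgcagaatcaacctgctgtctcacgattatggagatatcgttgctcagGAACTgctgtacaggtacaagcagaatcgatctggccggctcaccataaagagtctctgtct

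Igf2r held 12 GGACT and 12 GAACT in its 7452 coding bases, a density of 3.22 per 1000 bases that lies above the upper quartile of all transcripts. Grb10 held 3 GGACT and 2 GAACT in either row, 2.79 and 3.08 per 1000 bases. Peg3 held 4 of each in 4716 bases, a density of 1.70 that lies between the lower quartile and the median. Plagl1 held 1 match in 2115 bases and Mest 1 in 1008 bases (row NM_008590), both below the lower quartile. Plagl1 was called in CDS in 3 cell types. Dlk1 and Snrpn, whose rows carried no call anywhere, held 2 coding matches each, at 1.73 and 2.77 per 1000 bases. Both rows were low, with at most 1.20 FPKM for Dlk1 (SC) and 0.464 for Snrpn (iPSC). The row of Snurf, which shares a transcript with Snrpn, was called in 1 region in SC and in ESC. Grb10, with a density above the median, was called in CDS in no cell type. The part of match density in the calls was not tested.

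Near the stop codon the members split in another way. The nearest match lay 98 bases after the stop codon in Grb10, 132 in Peg3 and 163 in Mest, the member called in TsTS and 3' UTR in NSC. In Plagl1 and Igf2r it lay 524 and 541 bases after the stop codon, outside the 300 bases searched on each side. Both were called in TsTS, Plagl1 in SC and ESC and Igf2r in SC, iPSC and ESC. The extent of TsTS is not known, and forms of the consensus other than GGACT and GAACT were not searched. Grb10 was called in TsTS in SC and iPSC, and Peg3 in SC, iPSC and ESC. Of the 2 genes without a call, Snrpn held 1 match in the last 300 coding bases and Dlk1 none on either side. Over 12096 reference transcripts with that much sequence on both sides, 51.0% held a match in the last 300 coding bases, 50.8% in the 300 bases after the stop codon and 76.0% in either. The 25 bases around the nearest match are shown for the 3 genes with a match within 300 bases after the stop codon, at chr11:11933353-11933377 (minus) for Grb10, chr7:6707362-6707386 (minus) for Peg3 and chr6:30747320-30747344 (plus) for Mest.
Grb10 after the stop: tcccacccaaGGACTcagaacaaca
Peg3 after the stop: tatacataccGGACTtcacatcaaa
Mest after the stop: caggcagctgGAACTctatagggtg

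The measured imprinted genes lay between 0 and 123 FPKM, and their order differed in each cell type. In bulk libraries fewer expressing cells and less RNA per cell cannot be told apart. At 1 FPKM or more stood 8 of the 9 measured members in SC, 6 in NSC, 7 in iPSC and 7 in ESC, and at 10 FPKM or more 4, 4, 5 and 1 in the same order. The shares of all genes at 1 FPKM or more were 74.5%, 72.3%, 70.1% and 69.6%. No share of all genes was computed at 10 FPKM, so the counts at that level have no background beside them. The median over the 9 members was 7.92 FPKM in SC, 3.79 in NSC, 10.6 in iPSC and 2.12 in ESC. Corresponding medians over all genes at 1 FPKM or more, a set that leaves out low genes as the 9 do not, were 15.98, 11.5, 8.06 and 7.50 FPKM. In ESC only Meg3 reached 10 FPKM.

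**Figure D2:**
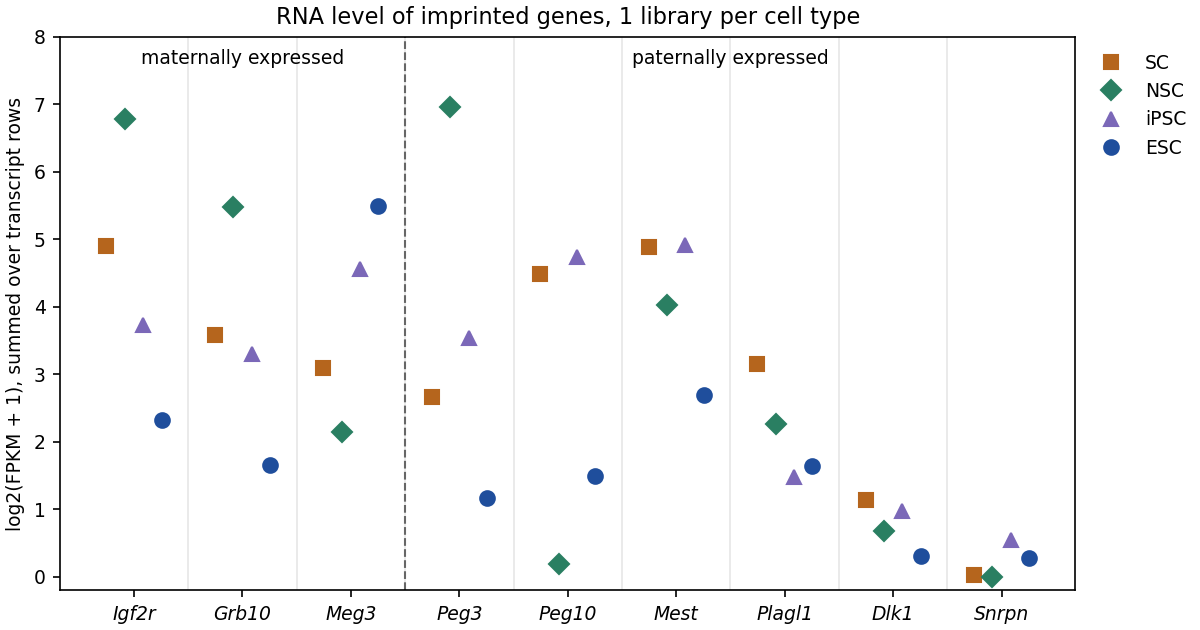
RNA level of the 9 measured imprinted genes as log2(FPKM + 1) (y axis) in SC, NSC, iPSC and ESC, 1 point per library, with the maternally expressed genes left of the dashed line. Igf2r, Grb10 and Peg3 are highest in NSC, Meg3 is highest in ESC, and Peg10 in NSC and Snrpn in all 4 cell types lie near 0.

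Among the maternally expressed members, Igf2r encodes the receptor that binds mannose-6-phosphate and clears the growth factor IGF2 from outside the cell. Its 1 row had 28.9 FPKM in SC, 109 in NSC, 12.2 in iPSC and 4.02 in ESC. SC and NSC both lay above iPSC and ESC. The highest level was 27.0 times the lowest, or 7.19 times without NSC.

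Grb10 encodes an adaptor that restrains signalling from the insulin and IGF1 receptors, and in neurons of the mouse it is expressed from the paternal copy. Its summed level was 11 FPKM in SC, 43.4 in NSC, 8.88 in iPSC and 2.13 in ESC. Its order of NSC, SC, iPSC, ESC was that of Igf2r. The 2 rows differed: NM_010345 had 8.97 FPKM in SC, 42.4 in NSC, 8.59 in iPSC and 0.123 in ESC, and NM_001177629 had 2.03 in SC, 0.913 in NSC, 0.299 in iPSC and 2.01 in ESC. So the second row made up most of the ESC level and little of the others. The rows share most of their sequence, so the split between them depends on how the authors' estimate assigned shared fragments.

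Meg3 is a long non-coding RNA of the imprinted cluster that also holds Dlk1 and Dio3. Its summed level was 7.55 FPKM in SC, 3.40 in NSC, 22.7 in iPSC and 44.1 in ESC. Apart from Snrpn, which stayed under 1 FPKM, it was the only member with its 2 highest levels in the pluripotent cells. Row NR_027652 carried most of it, with 5.64 FPKM in SC, 2.98 in NSC, 20.5 in iPSC and 38.8 in ESC, and row NR_003633 had between 0.414 in NSC and 5.31 in ESC.

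Of the paternally expressed members, Peg3 encodes a large zinc finger protein. It had 5.34 FPKM in SC, 123 in NSC, 10.6 in iPSC and 1.25 in ESC, a ratio of 98.4 between NSC and ESC. Without NSC the ratio of highest to lowest was 8.49. Its antisense neighbour Peg3os had 8.17, 172, 13.8 and 2.12 FPKM in the same order. The kit is not stated to keep strand, so reads of Peg3 and Peg3os cannot be told apart where the genes overlap.

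Peg10 derives from a retrotransposon and is needed in the mouse placenta. It had 21.5 FPKM in SC, 0.134 in NSC, 25.6 in iPSC and 1.83 in ESC. SC and iPSC were alike, with ESC far below them and NSC lower still. The ratio of 191 between iPSC and NSC was the widest of the 8 members that were above 0 in every library, and without NSC the ratio was 14.02. The list of extraembryonic endoderm and trophoblast markers held 6 genes with a row. They summed to 27.6 FPKM in SC, 0.728 in NSC, 18.7 in iPSC and 16.1 in ESC. Of them 2, 0, 2 and 2 reached 1 FPKM in the same order, and Cdx2 was listed at 0 in SC and NSC. Gata6 made up most of the SC sum (25.05 FPKM), and Tfap2c most of the iPSC (14.98) and ESC (13.2) sums. Sox17, Sox7 and Cdx2 stayed under 1 FPKM in every library. The part of these markers in the Peg10 level was not tested.

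Mest encodes an enzyme-like protein of the alpha/beta hydrolase fold and is a marker of mesoderm in the mouse embryo. Its summed level was 28.4 FPKM in SC, 15.4 in NSC, 29.2 in iPSC and 5.46 in ESC. Row NM_008590 had 28.2 FPKM in SC, 14.6 in NSC, 27.9 in iPSC and 3.17 in ESC. Row NM_001252293 had 2.29 FPKM in ESC and was listed at 0 in the other 3 libraries, and NM_001252292 was between 0 in ESC and 1.35 in iPSC. As with Grb10, the ESC level was shared between rows in a way the other libraries did not show.

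Plagl1 encodes a zinc finger transcription factor that regulates other imprinted genes in the mouse. It had 7.92 FPKM in SC, 3.79 in NSC, 1.77 in iPSC and 2.12 in ESC. At 4.47, its ratio between highest and lowest was the smallest of the 8 members above 0 in every library. Dlk1, a transmembrane protein related to the Notch ligands, had 1.20 FPKM in SC, 0.597 in NSC, 0.953 in iPSC and 0.234 in ESC, so it reached 1 FPKM in SC only. Snrpn encodes a protein of the splicing machinery that is abundant in brain. Its row had 0.0171 FPKM in SC, was listed at 0 in NSC and had 0.464 in iPSC and 0.206 in ESC. Snurf, which shares a transcript with Snrpn, had 28.8 FPKM in SC, 0.0856 in NSC, 38.2 in iPSC and 26.5 in ESC. Because the 2 share exons, their reads cannot be told apart there, and Snrpn is left out of the comparisons as a gene under 1 FPKM.

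Reprogrammed and embryonic pluripotent cells were compared first. Of the 7 members at 1 FPKM or more in iPSC or ESC, 5 stood at least 2-fold above their ESC level in iPSC and 0 at least 2-fold below it. Among all 11598 genes compared, 12.9% were at least 2-fold higher and 12.4% at least 2-fold lower. The log2 difference was 3.23 for Peg10, 2.37 for Peg3, 2.23 for Mest, 1.66 for Grb10 and 1.40 for Igf2r. The 2 members short of the threshold had Meg3 at -0.93 and Plagl1 at -0.17. Dlk1 and Snrpn, under 1 FPKM in both libraries, differed by 0.66 and 0.28. The median over the 7 members was 1.66, against -0.03 over all genes. With the NM_010345 row in place of the sum, Grb10 differed by 3.09. The summed level of markers of fibroblasts and peritubular cells was also higher in iPSC, at 61.0 FPKM against 8.17 in ESC. At 1 FPKM or more stood 6 of 12 in iPSC and 4 of 12 in ESC, where Col3a1 was listed at 0. Acta2 (18.8 FPKM in iPSC and 0.247 in ESC) and Tagln (27.7 and 1.12) made up most of the iPSC sum. Col1a1 had 4.82 in iPSC and 0.709 in ESC. Pdgfrb went the other way, with 0.372 in iPSC and 2.08 in ESC, and Thy1 was level at 2.68 and 2.80. The part of such cells in the members' differences was not tested.

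Transcript length moved with this comparison. Among genes with a reference transcript of 4000 nt or more, 23.9% were at least 2-fold higher in iPSC and 3.32% at least 2-fold lower. Among genes of 2000 to under 4000 nt, 11.7% were higher and 9.25% lower, and among genes under 2000 nt, 5.19% were higher and 23.7% lower. The reference transcripts of Igf2r (8887 nt), Peg3 (8694 nt), Plagl1 (5260 nt) and Grb10 (5061 nt for NM_010345) lie in the long class, and those of Mest (2561 nt), Snrpn (1932 nt) and Dlk1 (1703 nt) below it. Of the members compared, the 4 in the long class were higher in iPSC in 3 cases, with Plagl1 the exception. Mest, outside that class, was also higher. No length is given for Meg3 or for Peg10, the member with the largest difference, which had no matched reference transcript. The part of length in these differences was not tested.

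**Figure D3:**
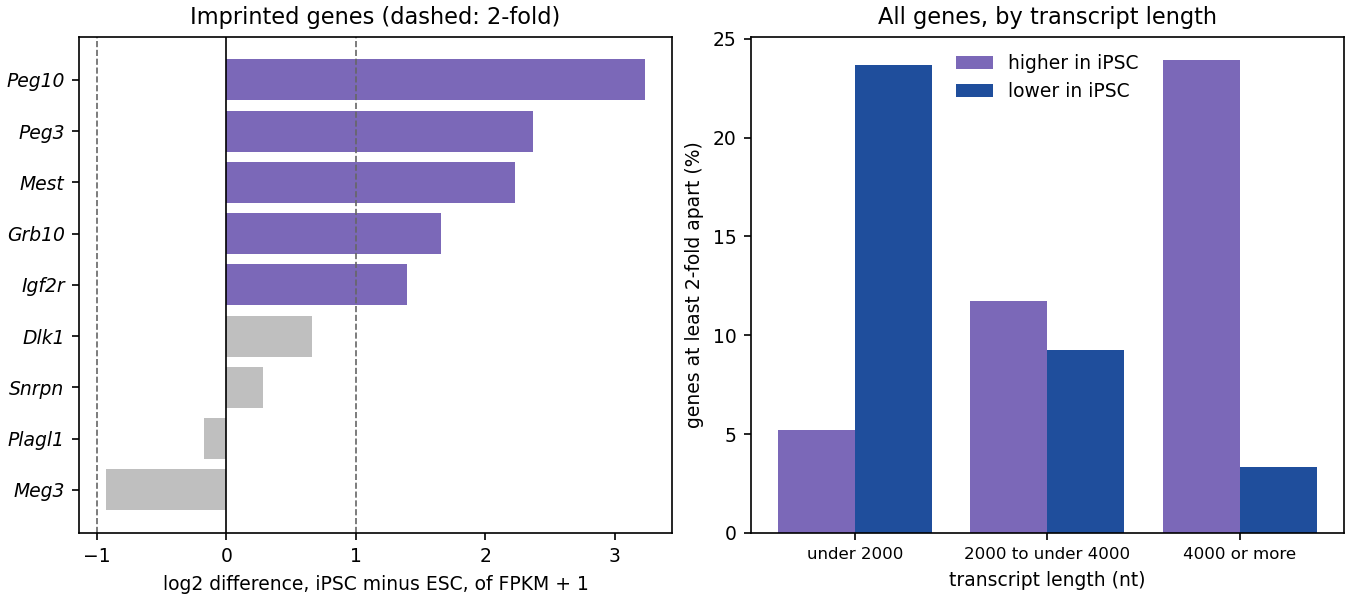
Left, log2 difference of iPSC minus ESC on the log2(FPKM + 1) scale for each member (x axis), with dashed lines at 2-fold and grey bars for members short of it or under 1 FPKM in both libraries. Right, percent of all genes at least 2-fold higher or lower in iPSC (y axis) by reference transcript length (x axis), where the higher share is 5.19% under 2000 nt and 23.9% at 4000 nt or more.

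Between the differentiated cell types the members parted in both directions. Of 8 members compared, Peg10 was at least 2-fold higher in SC than in NSC, with a log2 difference of 4.31. Peg3, Grb10 and Igf2r were at least 2-fold lower in SC, with differences of -4.29, -1.89 and -1.87. The others were short of 2-fold: Meg3 at 0.96, Plagl1 at 0.90, Mest at 0.85 and Dlk1 at 0.46. Over all 12514 genes 35.2% were higher and 14.9% lower in SC, and the median difference was 0.51, against 0.65 over the members. After dividing each library by its median ratio to the 4-library geometric mean, 22.7% of all genes were higher and 22.2% lower, with a median of -0.02, and the same 4 members stayed beyond 2-fold in the same directions.

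The third comparison asked which members set both differentiated cell types apart from both pluripotent ones. It shares its libraries with the 2 comparisons above. Igf2r lay higher in SC and NSC, with a gap of 1.18 between the nearest libraries of the 2 sides, and Meg3 lay lower, with a gap of -1.47. Plagl1 and Grb10 were higher without overlap but by gaps of only 0.62 and 0.28, and Peg3, Peg10, Mest and Dlk1 overlapped between the sides. Over all 13642 genes 12.8% were higher and 5.01% lower by this rule, so 1 of 8 members in each direction is near the background. With the scaled libraries 6.41% were higher and 8.60% lower, Igf2r had a gap of 0.25 and was no longer beyond 2-fold, and Meg3 had -2.34. Without the NSC libraries, Plagl1 (1.52) and Igf2r (1.18) were at least 2-fold higher in SC than in both iPSC and ESC and Meg3 (-1.47) lower, where 38.2% of all genes were higher and 8.83% lower.

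The cluster neighbours of the members were set beside them. In the Dlk1 to Dio3 cluster the non-coding RNA Rian had 5.10 FPKM in SC, 1.75 in NSC, 25.9 in iPSC and 13.6 in ESC, and Mirg, which hosts microRNAs, had 0.445, 0.194, 3.48 and 11.8 in the same order. Dio3, an enzyme that inactivates thyroid hormone, was listed at 0 in SC and NSC and had 3.84 FPKM in iPSC and 37.6 in ESC. Meg3, Rian, Mirg and Dio3 were thus all highest in the pluripotent pair. Between iPSC and ESC they did not go one way: Mirg and Dio3 differed by -1.52 and -3.0, Meg3 by -0.93, and Rian by 0.88.

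Near Peg3, the zinc finger gene Zim1 had 0.0266 FPKM in SC, 18.8 in NSC, 0.0967 in iPSC and 0.0299 in ESC, so it stood above 1 FPKM only in NSC, where Peg3 was also highest. Usp29 did not exceed 0.464 FPKM anywhere. Near Igf2r, the antisense non-coding RNA Airn, which silences the paternal Igf2r copy in the mouse embryo, had 2.08 FPKM in SC, 23.7 in NSC, 0.0413 in iPSC and 0.00998 in ESC. Airn and Igf2r overlap on opposite strands, so reads in the shared stretch cannot be told apart. Igf2, whose protein is cleared by Igf2r and which is the partner of H19, had 0.144 FPKM in SC, 17.7 in NSC, 2.33 in iPSC and 1.16 in ESC.

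Sgce, a sarcoglycan gene that shares a promoter region with Peg10, had 41.8 FPKM in SC, 0.135 in NSC, 2.16 in iPSC and 1.01 in ESC. Both were near 0 in NSC and high in SC, but Peg10 had like levels in iPSC and SC and Sgce did not. Copg2, a coat protein gene that overlaps the end of Mest on the other strand, had 17.6 FPKM in SC, 29.8 in NSC, 15.04 in iPSC and 9.58 in ESC. Reads of Mest and Copg2 cannot be told apart in the shared stretch. In the Snrpn domain, Ndn, a growth suppressor in neurons, had 92.0 FPKM in SC, 7.24 in NSC, 3.75 in iPSC and 4.11 in ESC. Ube3a, a ubiquitin ligase, had 9.69, 16.7, 6.44 and 2.98 in the same order, and Magel2 did not exceed 0.403. Next to Grb10, Ddc, an enzyme of dopamine synthesis, had 0.739 FPKM in SC, was listed at 0 in NSC and had 4.78 in iPSC and 9.48 in ESC. Phactr2, which neighbours Plagl1, had 3.97 FPKM in SC, 1.76 in NSC, 0.421 in iPSC and 1.10 in ESC.

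**Figure D4:**
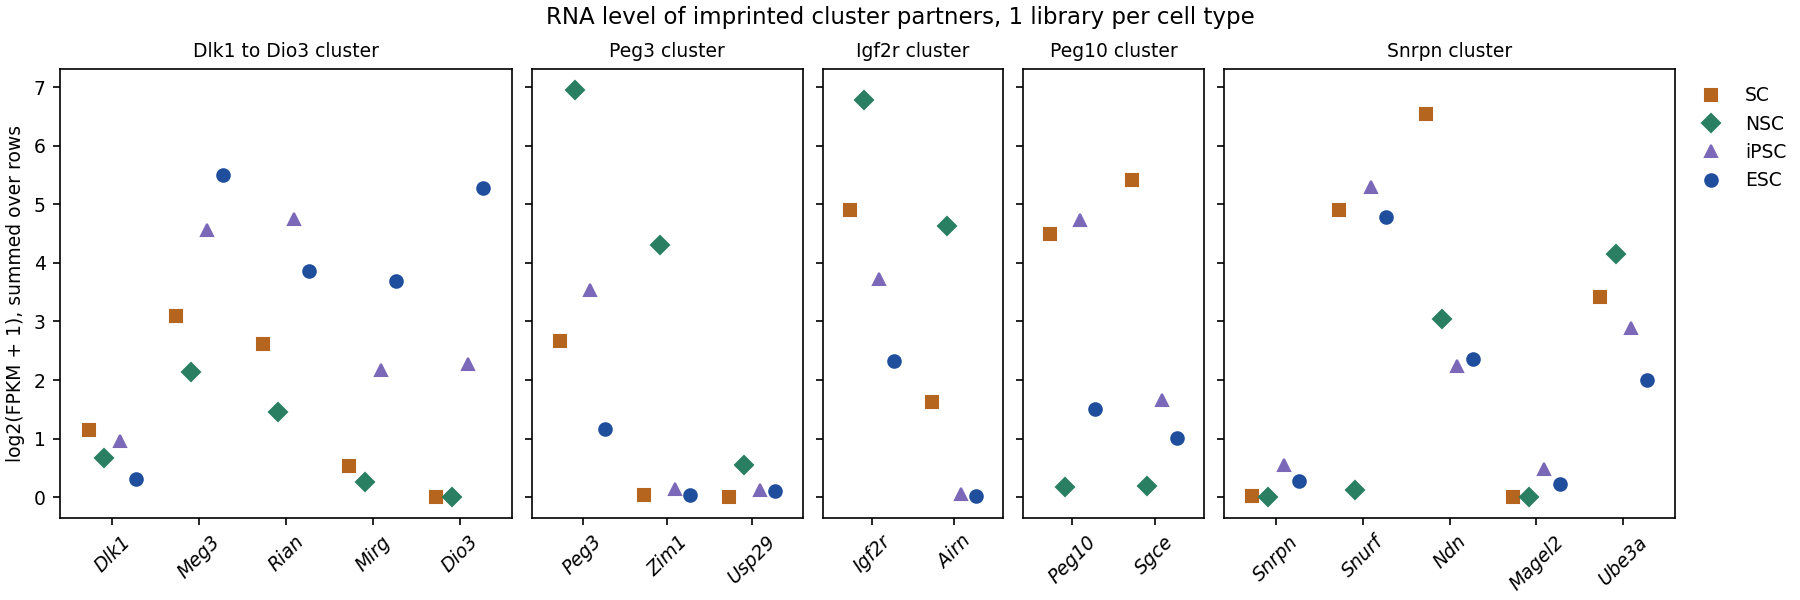
RNA level as log2(FPKM + 1) (y axis) of members and their cluster partners in SC, NSC, iPSC and ESC, 1 point per library, grouped by cluster. Peg3 and Zim1, and Igf2r and Airn, are highest in NSC, and Meg3, Mirg and Dio3 in ESC.

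A wider list of 65 imprinted genes outside the members, of which 53 had a row, gave the setting. Of 39 compared between iPSC and ESC, 4 were at least 2-fold higher and 4 lower in iPSC, with a median of 0.13, beside 12.9% higher and 12.4% lower over all genes. At 10 FPKM or more these included Impact, with 15.4 FPKM in iPSC and 6.12 in ESC, and the amino acid transporter gene Slc38a4, with 54.0 and 25.0. Of 40 compared between SC and NSC, 20 were higher and 7 lower in SC, with a median of 1.00, beside 35.2% higher and 14.9% lower over all genes and a median of 0.51. Among those at 10 FPKM or more in SC or NSC, the 8 with the widest differences beside the cluster partners were Dcn (6.01), Gatm (4.91), Pon2 (3.45), Nnat (3.09), Cd81 (2.58), Tssc4 (2.32) and Cobl (2.04) on the higher side and the cell cycle inhibitor Cdkn1c (-4.21) on the lower. Dcn is also on the fibroblast list.

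Of 46 compared across the 2 sides, 9 were higher and 7 lower in SC and NSC, with a median of 0.83 against 0.64 over all genes, of which 12.8% were higher and 5.01% lower. At 10 FPKM or more in SC or NSC, or for the lower ones in iPSC or ESC, 8 were named beside the cluster partners. Those higher in SC and NSC were Osbpl5 (3.65), Gatm (3.37), Gnas (2.27), H13 (1.95), Pon2 (1.29) and Peg13 (1.13). Gatm makes a creatine precursor and Gnas encodes a G protein subunit. Those lower were Slc38a4 (-4.34) and Phlda2 (-2.39), a gene that restrains placental growth.

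Genes that protect or lay down imprints were taken from a list of 9. Zfp57, a zinc finger protein that binds the methylated copy, had 26.3 FPKM in SC, 7.37 in NSC, 80.1 in iPSC and 210 in ESC, and its partner Trim28 had 174, 140, 493 and 422 in the same order. The maintenance methyltransferase gene Dnmt1 had 16.9 FPKM in SC, 39.3 in NSC, 32.6 in iPSC and 21.5 in ESC, and its recruiter Uhrf1 had 5.80, 47.5, 67.9 and 113. Dppa3 was listed at 0 in SC and NSC and had 19.6 in iPSC and 24.2 in ESC. The de novo methylation genes Dnmt3a, Dnmt3b and Dnmt3l had 29.2, 38.5 and 178 FPKM in iPSC, against 7.24, 13.98 and 38.2 in ESC, and all 3 were at least 2-fold higher in iPSC. Zfp445, a second imprint-binding zinc finger gene, had 14.05 FPKM in iPSC and 2.58 in ESC. Between iPSC and ESC, 4 of the 9 were thus higher and 1, Zfp57, lower, beside 12.9% and 12.4% of all genes. In SC and NSC, 5 of the 9 were at least 2-fold below both pluripotent libraries and 0 above, beside 5.01% and 12.8% of all genes.

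The genes with the level pattern nearest to each member were sought among 8707 other genes at 10 FPKM or more in some library. Likeness was the Euclidean distance between the 4 log2(FPKM + 1) values after subtracting each gene's mean, over 4 cell types. Nearest to Peg3 were Peg3os (0.13), Raet1d (1.10) and Cd34 (1.35), with Zim1 at rank 20. Nearest to Igf2r were Cnot6l (0.10), Rbmx (0.41) and Myo5a (0.43), with Grb10 at rank 24 and Airn at rank 148. Nearest to Grb10 were Gatad2b (0.21), Mib1 (0.25) and Epm2aip1 (0.28), with Igf2r at rank 51.

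Meg3 was nearest to Gjb5 (0.26), Rpl31-ps12 (0.31) and Apobec3 (0.34), and its cluster partners Mirg, Rian and Dio3 ranked 23, 154 and 912. Among the 3 genes nearest to Mest were Bzw1 (0.28) and Fnbp1l (0.33), with Copg2 at rank 1699. Nearest to Peg10 were Dse (0.93), Steap1 (1.10) and Lyz2 (1.27), with Sgce at rank 319. Peg3 was the only member with a gene of its own locus in the first place, and its reads cannot be told apart from those of Peg3os where the genes overlap. Without NSC, over 3 cell types and 8066 other genes, Peg3os ranked 2 for Peg3, Grb10 ranked 596 for Igf2r and Igf2r 437 for Grb10, Mirg ranked 144 and Rian 816 for Meg3, and Sgce ranked 4929 for Peg10. Zim1 and Airn did not reach 10 FPKM outside NSC.

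The m6A calls fell on the same 5 members in SC and iPSC, on 4 of them in ESC and on another in NSC. Of 7 coding members at 1 FPKM or more in SC, 5 were called in some region, on 6 of 8 rows, against 69.5% of all coding rows. In NSC 1 of 5 was called, on 1 of 5 rows, against 59.9%. In iPSC 5 of 6 were called, on 5 of 7 rows, against 71.1%. In ESC 4 of 6 were called, on 4 of 7 rows, against 71.1%. In SC, iPSC and ESC the members' shares were near the background. The exact 95% interval of the background share covered 68.7% to 70.3% in SC, for counting error over rows only.

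**Figure D5:**
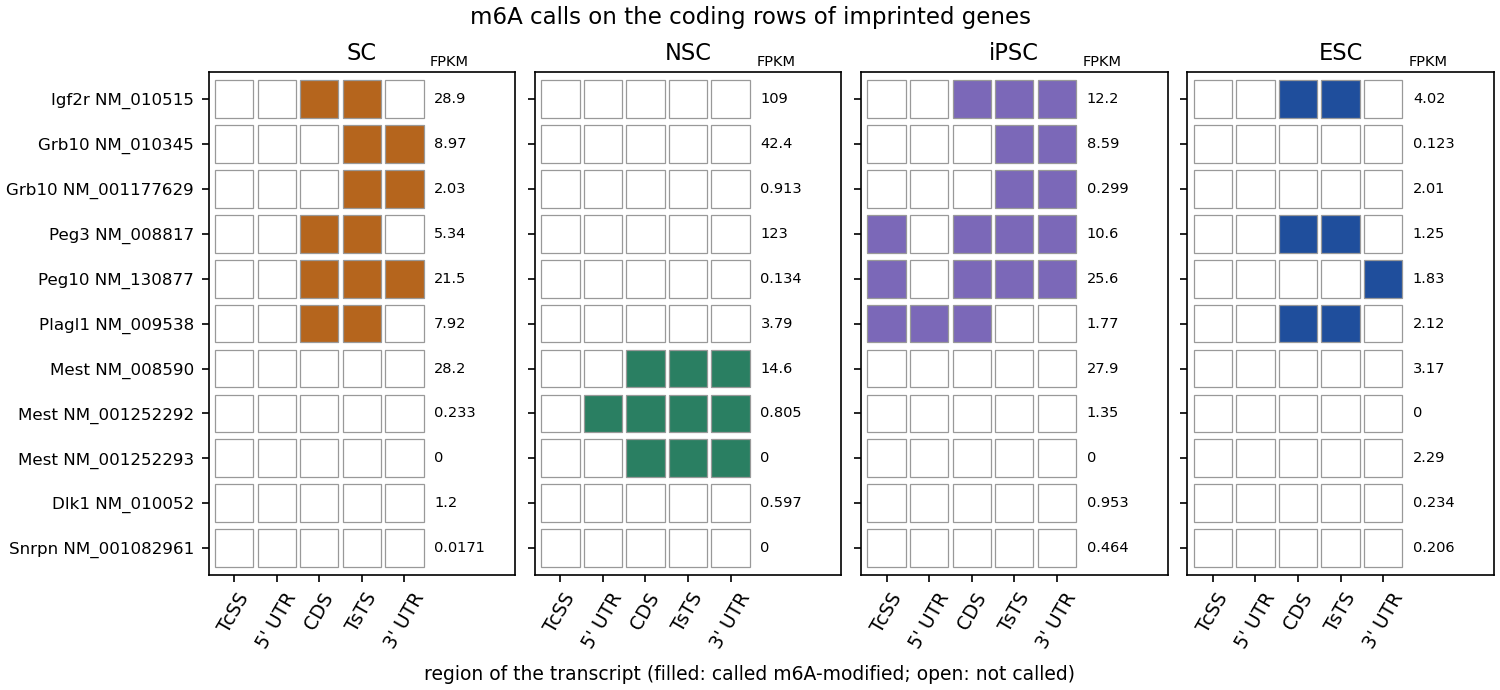
m6A calls on the 11 coding rows of the imprinted genes (rows) in 5 transcript regions (columns), 1 panel per cell type, with filled squares for a call and the FPKM of the row beside them. In NSC only the 3 Mest rows are filled, and Mest is open in SC, iPSC and ESC.

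Igf2r was called in CDS and TsTS in SC and ESC and in CDS, TsTS and 3' UTR in iPSC. It was not called in NSC, where its level was highest. Its coding sequence is the one with the dense matches shown above. Grb10 was called in TsTS and 3' UTR on both rows in SC and iPSC and was not called in NSC or ESC. The nearest match shown for Grb10 lies in the stretch after the stop codon. The part of these matches in the calls of Igf2r and Grb10 was not tested.

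Peg3 was called in CDS and TsTS in SC and ESC, and in TcSS, CDS, TsTS and 3' UTR in iPSC. At 123 FPKM in NSC it was not called, while at 1.25 FPKM in ESC it was. Peg10 was called in CDS, TsTS and 3' UTR in SC, with TcSS added in iPSC, and in 3' UTR alone in ESC, and it was under 1 FPKM in NSC. Plagl1 was called in CDS and TsTS in SC and ESC and in TcSS, 5' UTR and CDS in iPSC, with no call in NSC at 3.79 FPKM.

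Mest had the opposite pattern. It was called in CDS, TsTS and 3' UTR on all 3 rows in NSC, with 5' UTR added on NM_001252292, and was called in no region in SC, iPSC or ESC, although its level was higher in SC and iPSC than in NSC. Row NM_001252293 was called in NSC while listed at 0 FPKM there, and the 3 rows share most of their sequence. The row of Copg2, which overlaps the end of Mest, was called in 1 region in NSC and in iPSC. The part of Copg2 reads in the Mest calls was not tested. Dlk1 and Snrpn were called nowhere, but Snurf, which shares a transcript with Snrpn, was called in 1 region in SC and in ESC. Meg3, as a non-coding RNA, carries no call because the 1198 non-coding rows have 0 calls in the table.

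By region, member rows at 1 FPKM or more in SC were called on 4 of 8 in CDS, 6 of 8 in TsTS and 3 of 8 in 3' UTR, where all coding rows gave 48.7%, 44.7% and 23.3%. In NSC the counts were 1 of 5 in each of the 3 regions, beside 45.4%, 37.8% and 28.3%. In iPSC they were 4 of 7 in each, beside 47.2%, 48.3% and 33.6%. In ESC they were 3 of 7, 3 of 7 and 1 of 7, beside 42.6%, 50.0% and 27.1%. In TcSS the members had 0 of 8 in SC, 0 of 5 in NSC, 3 of 7 in iPSC (Peg3, Peg10 and Plagl1) and 0 of 7 in ESC, beside 12.7%, 12.7%, 12.6% and 17.1% of all coding rows.

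Calls were then compared over rows at 1 FPKM or more in both cell types of a pair, which keeps an absent transcript from counting as an absent mark. Between iPSC and ESC, 0 of 5 member rows were called in iPSC and not in ESC and 0 in ESC and not in iPSC, where 9.19% and 9.84% of all such rows were. Between SC and NSC, 4 of 5 member rows (Peg3, Plagl1, Grb10 and Igf2r) were called in SC and not in NSC, and 1 of 5 (Mest) in NSC and not in SC, where the background shares were 17.1% and 9.74%. All 5 thus differed in their call between SC and NSC. In the wider list 29 of 41 rows were called in SC, 23 of 43 in NSC, 30 of 43 in iPSC and 23 of 37 in ESC, beside the 69.5%, 59.9%, 71.1% and 71.1% of all coding rows given above. The part of the NSC libraries in the members' missing NSC calls was not tested.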

How the data were processed

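The RNA level of each RefSeq transcript was deposited by the authors as FPKM, per the file headers, and m6A as scores of 1 (modified) or 0 in 5 regions per transcript, as deposited. Per the submitters' processing notes, CASAVA, TopHat2 2.0.4, Cufflinks 2.0.2 and build mm9 were used, without roles. The sources used here do not name the peak caller, its threshold or its control. Calls have no height. Messenger RNA was broken into fragments of about 100 nt, per the labels' protocols.

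RefSeq identifiers were given symbols from a RefSeq gene table of GRCm38.p6 (19446 rows) and GENCODE M21 (104 rows), and 226 had no match. Coordinates are given only for printed GRCm38 reference sequence, never converted from mm9. FPKM were summed over a gene's rows, and log2(FPKM + 1) differences were called at 2-fold among genes at 1 FPKM or more in 1 library compared. With 1 library per cell type and assay there is no test. Depth is unknown: low FPKM values showed no common step (at most 1.60% of 689 rows in a bin of 0.02 log2). Summed FPKM was 816630 in SC, 514268 in NSC, 391231 in iPSC and 575834 in ESC. An exact 0 can be a failed estimate and is reported as listed at 0.

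The members and all gene lists were chosen with earlier results of these data known. Named genes were the members, their listed cluster partners, up to 8 other listed imprinted genes per comparison at 2-fold and 10 FPKM, the imprint maintenance genes and the 3 genes most like each member, of which 1 is not reported here. Comparison code was tested on simulated data. Python 3.11.15, numpy 2.4.6, pandas 2.3.3, scipy 1.17.1 and matplotlib 3.10.9 were used.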

Additional observations from a re-analysis of the deposited data

How the results depend on the processing

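Pseudocounts of 0.1 and 5 FPKM, no filter, a filter at 5 FPKM, the highest row in place of the sum and median ratio scaling were tried. For the counts of members, 55 alternative values stayed within 1.5 times and 7 moved. For single members, 108 values kept their side of the threshold, 5 passed it, 4 no longer did and 0 reversed. With a pseudocount of 5, 3 members passed 2-fold upwards in iPSC over ESC (Igf2r at 0.93 and Grb10 at 0.96 fell short), and 0 in SC and NSC over ESC and iPSC (Igf2r at 0.98). With a pseudocount of 0.1, 3 of 8 were higher in SC than in NSC, adding Meg3 and Plagl1. This is near the 38.3% of all genes that were higher with that setting. With median ratio scaling, 0 were higher in SC and NSC (Igf2r at 0.25). Without the NSC libraries, an alternative chosen after seeing the data (as for spans and likeness), 2 were higher. No coding row of a member reached 5 FPKM in ESC, so with that filter 0 were called there. With no filter, 1 gene, Grb10, was called in iPSC and not in ESC, and no share over all coding rows was computed for that setting. Over all genes, a pseudocount of 5 gave 4.10% higher and 5.69% lower in iPSC than in ESC (12.9% and 12.4% with 1), 5.59% and 2.10% in SC and NSC than in ESC and iPSC (12.8% and 5.01%), and 7.31% lower in SC than in NSC (14.9%). A pseudocount of 0.1 gave 7.94% lower in SC and NSC (5.01%).

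The reference transcript lengths, also looked at after seeing the data, covered 99.2% of genes compared between iPSC and ESC. With 1 library per cell type and unknown depth, low values such as those of Dlk1 and Snrpn have no known precision. No paired analysis was possible because each group holds 1 sample.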
